A study of Arabidopsis thaliana with 9 samples.

Results

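FIE peaks of the double knockdown on the chromosome arms of Arabidopsis thaliana that lay outside protein-coding genes and met no wild-type FIE peak numbered 708, of 11422 peaks in both lists of the series. FIE is a subunit of Polycomb repressive complex 2 (PRC2). Chromatin immunoprecipitation with an antibody against FIE, followed by sequencing (ChIP-seq), was done on untreated Ws plants 30 hr old, grown in long days on plates. The knockdown plants carried the transgenes pRNAi-BPC and pRNAi-ZnF, by their names RNA interference constructs against BPC and ZnF genes (3 anti-FIE libraries). The wild-type plants had no transgene and gave 3 anti-FIE libraries and 3 input libraries, for 9 libraries in all. The labels give neither the promoter of the transgenes nor the number of lines, and they do not say which BPC and ZnF genes were targeted. The files gave 1 peak list per anti-FIE group, so values of single replicates were not analysed here and no test over replicates was possible. Peaks of 1 list share their libraries and are not replicates, so comparisons between sets of peaks are given as counts, shares and medians.

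A peak was counted among the 708 when it shared no base with a wild-type peak, when its summit lay in no protein-coding gene body, and when its summit lay outside the gene-poor intervals at 12.5 to 17 Mb of chromosome 1, 1.5 to 6.5 Mb of chromosome 2, 11 to 16.5 Mb of chromosome 3, 1.5 to 6 Mb of chromosome 4 and 9.5 to 14.5 Mb of chromosome 5. The 708 were thus chosen by the positions in both lists, so the absence of a wild-type peak and the place outside coding genes describe the choice and are not findings. The knockdown list held 798 arm peaks outside coding genes, and the 708 were 88.7% of them. For comparison, 89.7% of all 1908 knockdown arm peaks and 72.3% of all 4882 knockdown peaks had no wild-type overlap. Of the 708 summits, 321 lay in a pseudogene, 370 lay in no annotated gene and 17 lay on a non-coding RNA gene outside pseudogenes.

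PRC2 places the repressive H3K27me3 mark, which in Arabidopsis covers many developmental genes on the chromosome arms. BPC proteins bind GA-repeat motifs, and certain C2H2 zinc finger proteins are also known to bring PRC2 to DNA in this plant. Transposable elements and their remains are, in contrast, mostly marked by DNA methylation and H3K9me2. The pseudogene class used here comes from the RefSeq annotation, which does not tell remains of transposable elements from other pseudogenes.

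Like the other knockdown arm peaks, the 708 were mostly short and of low fold. Their median length was 131 bp (interquartile range 95 to 227), and 325 of them (45.9%) were under 120 bp, against 52.7% of all 1908 knockdown arm peaks. The median fold enrichment at the summit, the authors' value from the peak caller, was 4.25 (interquartile range 4.02 to 4.58), and the lowest was 3.43. A fold of 5 or more was reached by 85 peaks and a fold of 7 or more by 2. From the deposited fold and −log10 p, the summit pileup (the number of fragments over the summit) had a median of 39, and 490 peaks (69.2%) had at most 40, against 68.6% of all knockdown arm peaks. By deposited q, 242 of the 708 (34.2%) stood above the median of the knockdown list.

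**Figure D1:**
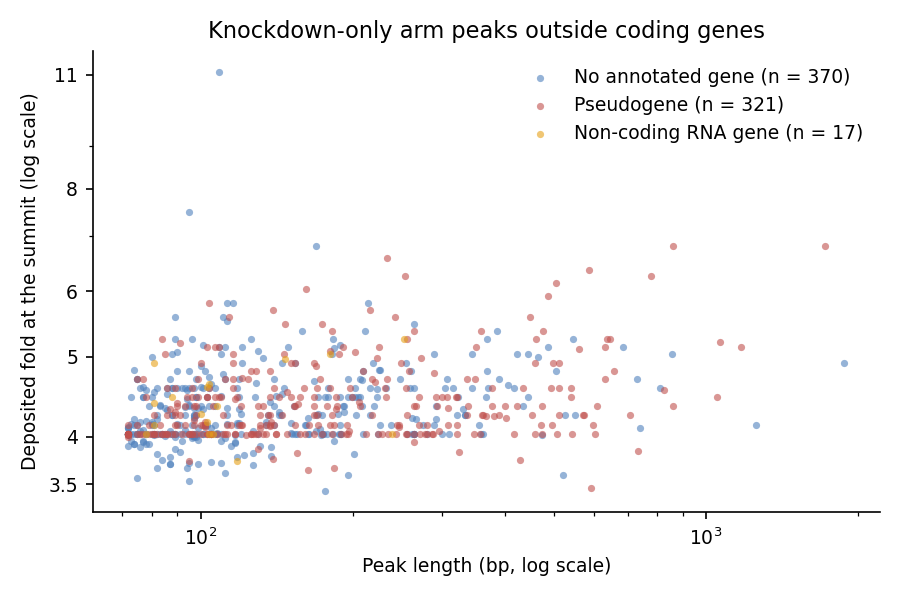
Each point is 1 of the 708 knockdown-only arm peaks outside coding genes, by peak length in bp (x, log scale) and deposited fold enrichment at the summit (y, log scale), coloured by the annotation at the summit. The quartiles of the fold are 4.02 and 4.58, the rows of points are single steps of pileup, and 1 peak in no annotated gene stands apart at 11.1.

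The lists differed in background. The background recovered at the summit was most often 7.94 in the knockdown list and 16.9 in the wild-type list, a ratio of 0.471. This was taken as the ratio of depth, and any share of fragment length or scaling in it was not tested. The lowest −log10 p was 12.4 in the knockdown list and 12.1 in the wild-type list, with lowest pileups of 35 and 53. A site under the wild-type filter is not a measured absence of FIE, and the effect of depth on which peaks met no wild-type peak was not tested. Input came from wild-type plants alone, so signal in the knockdown that needs no antibody cannot be told apart from FIE binding.

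Compared with the 1003 knockdown-only arm peaks in coding genes, the 708 had a similar fold and were longer. The median fold was 4.25 against 4.14, and the median length 131 bp against 103 bp. Peaks of 500 bp or more made up 6.07% of the 708 (43 peaks) and 2.29% of those in coding genes (23 peaks). Within the 708 the difference in length was largest for pseudogene peaks, though not confined to them. Their median was 160 bp (interquartile range 104 to 281), against 112.5 bp (89 to 190.75) at summits in no gene. The 90 knockdown arm peaks outside coding genes that did overlap a wild-type peak were longer and stronger still, with medians of 373.5 bp and a fold of 5.03. A longer peak is more likely to touch any other peak, so this last contrast follows in part from the rule. The background at the summit was at the common value of 7.94 for 71.8% of the 708 and for 51.3% of the knockdown-only peaks in coding genes.

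Pseudogenes held a large part of these peaks. The summit lay in a pseudogene in 321 of 708 (45.3%, 95% Wilson interval 41.7 to 49.0), whereas pseudogenes made up 7.26% of the 34.1 Mb of arm bases outside coding genes. In the wild-type list, of the 1831 arm peaks outside coding genes that met no knockdown peak, 81 had the summit in a pseudogene (4.42%, 3.57 to 5.46). The intervals cover the counting of peaks alone, and how reads from similar copies were placed was not tested. Shared knockdown peaks on the arms stood at 34 of 90 (37.8%, 28.5 to 48.1). Knockdown-only peaks of the gene-poor intervals outside coding genes had a share close to that of the arms, at 739 of 1694 (43.6%, 41.3 to 46.0), but there pseudogenes made up 38.2% of the bases outside coding genes.

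**Figure D2:**
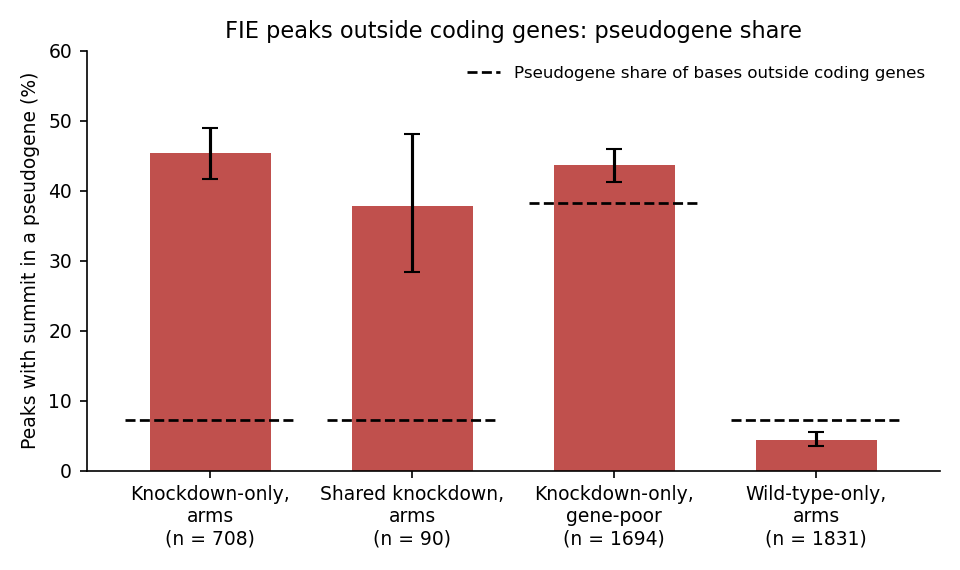
Bars show the percentage of FIE peaks outside coding genes whose summit lay in a pseudogene, with 95% Wilson intervals over peaks, for 4 sets of peaks. Dashed lines show the pseudogene share of bases outside coding genes in the same regions, 7.26% for arms and 38.2% for gene-poor intervals. Knockdown-only arm peaks stand at 45.3% and wild-type-only arm peaks at 4.42%.

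Pseudogenes are denser near the gene-poor intervals, and so were the peaks. Within 1 Mb of a gene-poor interval there were 18.1 of these peaks per Mb of arm, against 8.89 at 1 to 2 Mb, 9.71 at 2 to 5 Mb and 4.14 beyond 5 Mb. Knockdown-only peaks in coding genes had no such order, with 9.80, 8.44, 12.9 and 10.1 per Mb over the same distances. Arm pseudogenes themselves numbered 40.9, 20.2, 15.8 and 8.37 per Mb. Of these pseudogenes, 16.1%, 15.9%, 16.7% and 10.9% held a knockdown-only summit. For coding genes the same share was 4.30%, 3.24%, 4.29% and 3.47%. The pseudogene share of the 708 was 56.9% within 1 Mb, 50% at 1 to 2 Mb, 46.8% at 2 to 5 Mb and 32.2% beyond 5 Mb. At each distance it was above both the share in wild-type-only peaks (15.2%, 3.40%, 4.32% and 3.18%) and the pseudogene share of bases (15.8%, 9.17%, 7.33% and 4.08%).

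**Figure D3:**
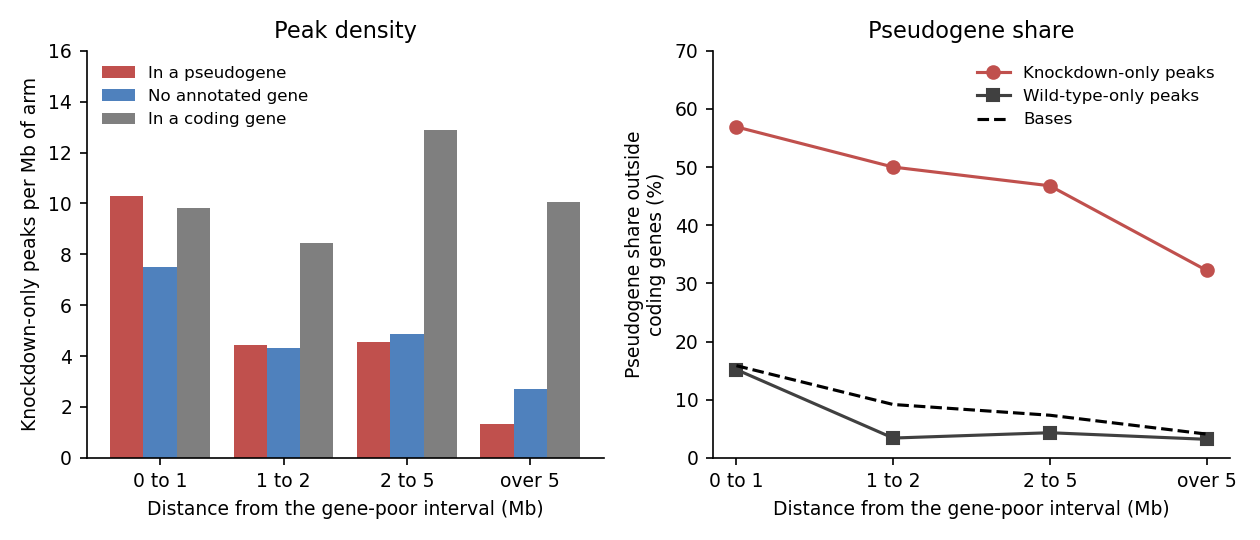
Left, knockdown-only arm peaks per Mb of arm (y) by distance from the nearest gene-poor interval in Mb (x), for summits in a pseudogene, in no annotated gene and in a coding gene. Right, the pseudogene share in percent of arm peaks outside coding genes and of arm bases outside coding genes at the same distances. Pseudogene peaks drop to 1.34 per Mb beyond 5 Mb, and their share stays above that of wild-type-only peaks at each distance.

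The 321 pseudogene summits fell in 205 of the 1401 arm pseudogenes (14.6%). A wild-type summit lay in 97 arm pseudogenes (6.92%), and 33 of the 205 were among them. Long pseudogenes held a summit most often. Of the pseudogenes of 3 kb or more, 37.7% held a knockdown-only summit and 14.8% a wild-type summit. Of those under 1 kb, 3.49% held a knockdown-only summit and 2.70% a wild-type summit. Per Mb of pseudogene, which allows for length, the knockdown-only summits numbered 147 in the longest class, 116 at 1 to 3 kb and 63.7 under 1 kb. Pseudogenes that RefSeq types as transcribed held a knockdown-only summit in 29 of 585 cases (4.96%), against 176 of 816 (21.6%) among the others. Per Mb of pseudogene these were 51.5 and 150 summits. A wild-type summit lay in 3.59% of the transcribed and 9.31% of the other pseudogenes, so the wild-type list had the same order with a smaller difference. None of the 29 transcribed hosts held a wild-type summit.

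**Figure D4:**
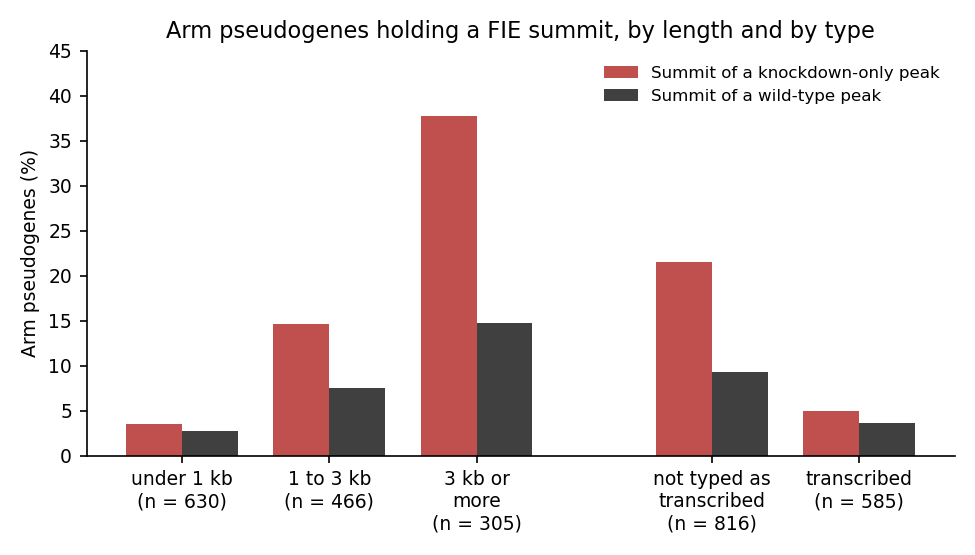
Percentage of arm pseudogenes (y) that held the summit of a knockdown-only peak or the summit of a wild-type peak, by pseudogene length and by RefSeq type (x). The largest value is 37.7%, for knockdown-only summits in pseudogenes of 3 kb or more.

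Most pseudogene hosts held a single summit (131 of 205), and 3 held 5. AT1G27780 on chromosome 1 carried 5 peaks between 9677118 and 9681734 with folds of 4.02 to 4.58. AT2G15140 on chromosome 2 carried 5 between 6567536 and 6570829 with folds of 4.25 to 5.25. AT3G59720 on chromosome 3 carried 5 between 22061042 and 22063731 with folds of 4.02 to 5.70. No wild-type summit lay in any of these 3. All positions are of deposited peaks (TAIR10), counted from 1.

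The pseudogene peak of highest fold was 1721 bp long, with its summit in AT5G13205 (fold 6.82, chromosome 5, 4208406 to 4210126). It had a summit pileup of 60 over the common background of 7.94, and the nearest wild-type peak lay 87 bp away. AT3G61330 followed with 860 bp (6.81, chromosome 3, 22695889 to 22696748) and AT1G53810 with 234 bp (6.60, chromosome 1, 20089855 to 20090088). AT2G01028 near the start of chromosome 2 reached 6.37 over 588 bp (25623 to 26210). AT1G48710 reached 6.26 over 777 bp (chromosome 1, 18016862 to 18017638), and there a wild-type peak lay 16 bp away. The transcribed pseudogene AT1G45225 had the same fold of 6.26 over 254 bp (chromosome 1, 17142963 to 17143216), and a wild-type peak lay 115 bp away. The other 4 of the first 10 were AT1G23930 (6.15, 505 bp), AT1G25886 (6.04, 162 bp), AT2G01034 (5.93, 487 bp) and AT2G01550 (5.81, 104 bp). The table names none of these 10 beyond the locus code.

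Among summits in no annotated gene was the strongest peak of all 708. It was 109 bp long at 19100447 to 19100555 of chromosome 2, with a fold of 11.1 and a pileup of 106 over a background of 8.65. Its summit lay 123 bp from AT2G46520, which had no wild-type peak, and the nearest wild-type peak was 3582 bp away. The second was 95 bp long (7.49, chromosome 5, 14739554 to 14739648), 116 bp from AT5G37240. Lower in the order, 3 peaks each had a fold of 5.81. They lay 132 bp from PMAT1, an acyltransferase gene (113 bp, chromosome 5, 15636549 to 15636661), 674 bp from AT1G53800 (214 bp, chromosome 1, 20085173 to 20085386) and 254 bp from AT1G45223 (116 bp, chromosome 1, 17140877 to 17140992). Of the other 4 of the first 10, at folds of 5.48 to 5.59, 1 lay 629 bp from NAP57, a gene for a pseudouridine synthase (113 bp, chromosome 3, 21156645 to 21156757). Of these 10 peaks in no gene, 7 were under 120 bp, and the nearest coding gene had a wild-type peak on its body at 1 of them, AT1G45223.

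Summits in no gene lay a median of 843 bp from the nearest coding gene (interquartile range 337.25 to 1813), and 153 of 370 lay at least 1 kb away. Wild-type-only arm peaks outside coding genes were at a similar distance, with a median of 769 bp. Pseudogene summits were farther off, at 2662 bp (1571 to 4322), and 66 of 321 were at least 5 kb from a coding gene. Of the 370 summits in no gene, 87 (23.5%) lay within 1 kb of a pseudogene body, against 63 of 1614 (3.90%) among wild-type-only summits in no gene.

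A summit in both a pseudogene and a non-coding RNA gene was counted with the pseudogenes. Outside pseudogenes, non-coding RNA genes held 17 of the 708 summits (2.40%) and made up 3.84% of the arm bases outside coding genes. Wild-type-only arm peaks outside coding genes had 136 of 1831 there (7.43%). By gene type the 17 were 8 on long non-coding RNA genes, 5 on genes typed as miscellaneous RNA, 2 on other non-coding RNA genes and 2 on microRNA genes. No summit lay on any of the 590 tRNA, 275 snoRNA or 78 snRNA genes of the arms. The wild-type list was alike, with summits on 1 tRNA, 0 snoRNA and 0 snRNA genes. Together 21 of 5000 arm non-coding RNA genes held a summit of the 708 (0.42%), some of them overlapping each other or a pseudogene.

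The microRNA genes were MIR416 and MIR393b. MIR416 had the highest fold of the 17, 5.25 over 253 bp (chromosome 2, 7008398 to 7008650), with the nearest wild-type peak 1353 bp away. MIR393b, which encodes a microRNA that targets mRNAs of TIR1/AFB auxin receptors, had a fold of 4.46 over 88 bp (chromosome 3, 20691693 to 20691780), and the nearest wild-type peak was 10245 bp away. AT1G25175, a non-coding RNA gene, followed MIR416 at 5.03 over 180 bp (chromosome 1, 8826922 to 8827101). The long non-coding RNA gene AT4G05780 was at 4.97 over 147 bp (chromosome 4, 6430359 to 6430505), 748 bp from NIP5;1, which encodes a boric acid channel. A peak of 81 bp at 4.92 lay on the overlapping long non-coding RNA genes AT5G06335 and AT5G06325 (chromosome 5, 17049982 to 17050062). The nearest coding gene there, at 3422 bp, was MRN1, which encodes marneral synthase and carried a wild-type FIE peak on its body. The other 5 of the first 10 were AT5G00640, AT4G03035, AT1G08955, AT1G09685 and AT5G09815, with folds of 4.26 to 4.63 and lengths of 81 to 108 bp.

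The peaks lay in groups along the arms. When neighbours at most 5 kb apart were joined, 346 of 708 (48.9%) stood in 105 groups of 2 or more and 362 stood alone. The same share was 20.2% for knockdown-only arm peaks in coding genes and 43.9% for wild-type-only arm peaks outside coding genes. Of the pseudogene peaks 70.1% stood in a group, of the peaks in no gene 31.6%. Of the groups, 53 were pairs, and the largest held 9 peaks.

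There were 2 groups of 9. The first spanned 17.7 kb of chromosome 4 (10543523 to 10561235) with 4 peaks in the pseudogene AT4G19320 and 5 in no gene, folds of 4.02 to 5.48, and 1 wild-type peak within 5 kb. The second spanned 11.1 kb of chromosome 1 (9676899 to 9688005), with 8 peaks in the pseudogenes AT1G27780, AT1G27790, AT1G27810 and AT1G27815 and 1 in no gene. It lay next to ACA1, a calcium-transporting ATPase gene, with folds of 4.02 to 4.58 and 0 wild-type peaks within 5 kb. Of the 5 groups of 8, the one with the most bases under peaks (3944) spanned 11.9 kb of chromosome 1 (7353168 to 7365106). It held 4 peaks in the pseudogenes AT1G21020 and AT1G21040 and 4 in no gene, at folds of 4.02 to 5.03, and 5 wild-type peaks lay within 5 kb.

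The longest run, picked after its values were seen by joining neighbours at most 10 kb apart, lay on chromosome 1 from 8765871 to 8832376. It held 21 of the 708 peaks in 66.5 kb, 8 in pseudogenes, 12 in no gene and 1 on a non-coding RNA gene. At AT1G24807, AT1G24909, AT1G25083 and AT1G25155 alike, 1 of these summits lay 491 bp from the gene body, with a fold of 5.25 or 5.37. Whether such summits are copies of 1 site was not tested, so the 21 need not be separate sites. LpxC1, LpxC2, LpxC3 and LpxC4 lie inside the run, and LpxC5 lies just beyond its end. These 5 genes encode homologues of a bacterial deacetylase of lipid A synthesis. A further 24 knockdown-only peaks in coding genes and 11 shared knockdown peaks lay in the run, so that 56 knockdown peaks covered 31.5 kb or 47.4% of it. The 21 folds ranged from 4.02 to 5.59 with a median of 4.70 and summit pileups of 35 to 49, and each had the common background of 7.94. The wild-type list had 14 summits there with folds of 3.02 to 3.42, against a median of 3.29 over that list, and 3 of the 14 met no knockdown peak. No genome sequence was used here, so how reads from near-identical copies were placed was not tested. Peaks in this run are uncertain for that reason. Read placement was not tested for any of the 708 peaks, so the limit is not confined to the run.

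**Figure D5:**
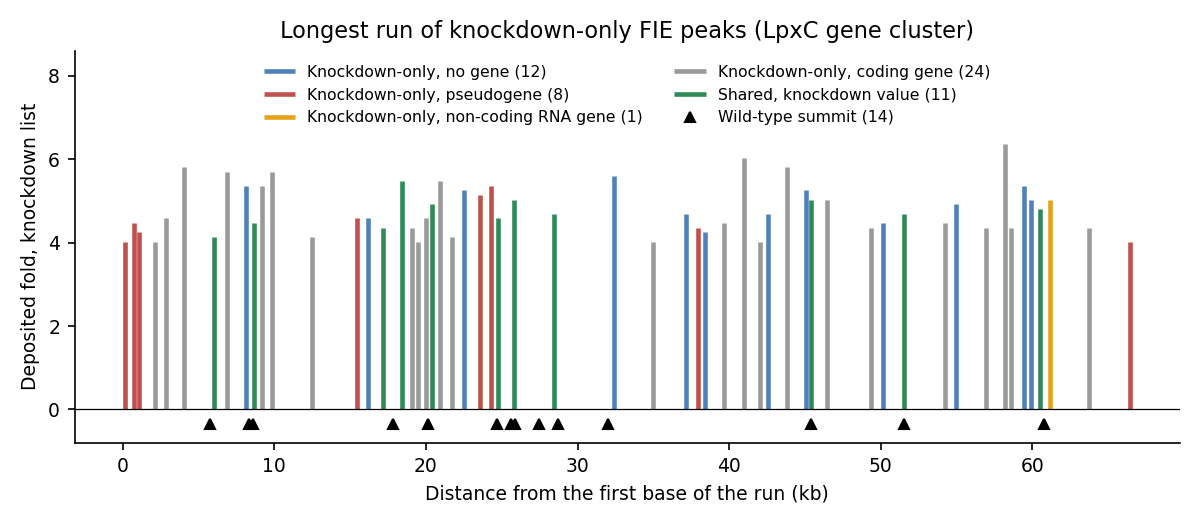
Summits of knockdown peaks (vertical lines, height is the deposited fold in the knockdown list) and of wild-type peaks (triangles, no height) along the 66.5 kb run with the LpxC genes, by distance in kb from its first base. Knockdown peaks of all classes lie between folds of 4.02 and 6.37 across the whole run.

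The second run by number held 16 peaks in 31.0 kb at the start of chromosome 2 (15827 to 46868), 13 of them in pseudogenes, at folds of 3.46 to 6.37, with 6 wild-type summits and 0 coding genes. In the first 1 Mb of chromosome 2 there were 37 of the 708, 30 in pseudogenes. By chromosome the density ranged from 6.03 per Mb of arm on chromosome 4 (85 peaks) to 9.39 on chromosome 2 (138 peaks). Chromosome 2 also had the highest pseudogene share (57.2%) and chromosome 4 the lowest (37.6%).

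The 5 longest peaks were 1876 bp next to LpxC4 (fold 4.92, chromosome 1, 8820756 to 8822631), the AT5G13205 peak above, and 1254 bp near XIC, a myosin gene (4.14, chromosome 1, 2788886 to 2790139). They also included 1176 bp at AT1G24938 in the LpxC run (5.14) and 1066 bp at the pseudogene AT1G58140 (5.21, chromosome 1, 21528257 to 21529322). Of the 708 peaks, 16 reached into a coding gene with part of their length.

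Coding genes next to these peaks carried a wild-type FIE peak in 135 of 708 cases (19.1%), 71 of them at pseudogene summits (22.1% of 321) and 60 at summits in no gene (16.2% of 370). The 708 had 516 distinct nearest genes, of which 81 had a wild-type peak (15.7%), against 10.1% of all 25450 arm coding genes. For wild-type-only arm peaks outside coding genes the share was 42.2%. The nearest wild-type peak lay a median of 7120 bp from the 708, and within 1 kb of 91 of them (12.9%).

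Known regulators were compared by distance. Of 103 genes matched on 8 lists, 1 had one of the 708 summits within 2 kb of its body (0.971%), against 563 of all arm coding genes (2.21%). That was FLC, a floral repressor known to be silenced by Polycomb proteins after cold. The peak was 209 bp long (fold 4.69, chromosome 5, 3180960 to 3181168), its summit lay 1671 bp from the FLC body and 819 bp from AT5G10150, and the nearest wild-type peak, on FLC, was 1413 bp away. FLC had no knockdown peak on its body, which was the usual state, since only 1068 of 25450 arm coding genes (4.2%) had one. The counts were 1 of 13 flowering time genes and 0 of 15 floral identity genes, 0 of 15 leaf polarity genes, 0 of 18 meristem genes, 0 of 10 seed genes, 0 of 11 Polycomb genes, 0 of 15 BPC, AZF and ZAT genes and 0 of 6 housekeeping genes. The 103 genes gave a count of 1 alone, and whether their share differs from 2.21% was not tested.

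At the edges of the rule, the peaks nearest to a wild-type peak were 8, 16 and 59 bp away and those just outside overlapped one by 8, 17 and 39 bp. Summits nearest to a coding gene lay 3, 4 and 10 bp from its body, and the nearest on the other side lay 3, 8 and 11 bp inside. The summits nearest to a gene-poor interval were 0.094, 2.84 and 5.14 kb outside it, and those just within were 1.87, 12.9 and 20.6 kb inside.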

How the data were processed

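The authors deposited 1 narrowPeak list per anti-FIE group, with no header and an abbreviated name for the knockdown that was taken as the BPC and ZnF group, the remaining anti-FIE group. Bowtie2, bedtools, MACS2 2.1.0.20151222 and TAIR10 are named per the submitters' processing notes, without their roles, and the way replicates and input were combined was not given in the sources used here. Each deposited row gives a score, a fold enrichment ratio, a −log10 p-value and q-value, and a summit. The lowest deposited −log10 q is 10, so weaker sites are not listed. Depth per library is not analysed here.

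Overlap needed 1 bp, checked with bedtools 2.31.1. Other steps used Python 3.11.15, pandas 2.3.3 and scipy 1.17.1. Pileup and background were recovered from fold and −log10 p under a Poisson model with a pseudocount of 1, tested on simulated data. The largest misfit among the 708 was 2.95e-05 in −log10 p. Genes came from a RefSeq table of TAIR10.1 without strand or exons, used to place summits. No genome sequence was used here, so no sequence is shown and motifs were not searched.

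No test was made, since each group had 1 list. Members, intervals and gene lists were chosen with earlier results of these data known. Named were the first 10 by fold per class, the 5 longest, the 3 largest groups and list genes within 2 kb, except that 1 of the 10 peaks in no gene is not reported here. Of the listed genes, ZAT5 and EF1A were not matched.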

Additional observations from a re-analysis of the deposited data

How the results depend on the processing

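No paired analysis was possible because the replicates of each group were given as 1 peak list, and leaving out a replicate could not be done either. Under 6 alternatives for 8 results, 34 of 48 values stayed within the 95% interval of the main value (counts within 1.5 times) and 14 did not. Above the median q of the knockdown list there were 242 peaks, with a median fold of 4.81, a median length of 159.5 bp, 38.8% within 5 kb of another and 24.8% next to a coding gene with a wild-type peak. With summits at least 1 kb from a coding gene there were 445, with 64.0% in pseudogenes, a median length of 141 bp, a median distance of 2619 bp, 58.4% within 5 kb of another and 23.4% next to a gene with a wild-type peak. With the gene-poor intervals widened by 1 Mb, 41.4% of 527 lay in pseudogenes and the median distance was 1408 bp, against 1608 bp. With no wild-type peak within 500 bp, 45.1% of 656 lay within 5 kb of another. The pseudogene share ranged from 41.4% to 64.0% over the 6 alternatives, against 45.3%. Motif searches were not run. Of the 708, 490 had a pileup of at most 40, and the effect of depth on these results was not tested. Beyond what each narrower selection removes by construction, the cause of these moves was not tested.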
